A study of Mus musculus with 18 samples.

Results

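The 10 genes described here encode A20 and its adaptors (Tnfaip3, Tnip1, Tnip2 and Tnip3), TRAF1 (Traf1), the deubiquitinase CYLD with its adaptor (Cyld and Spata2) and the subunits of the linear ubiquitin chain assembly complex (Rnf31, Rbck1 and Sharpin). They were taken by gene symbol as a pathway group, chosen with earlier results of these data known, and are 10 of the 36528 genes in the count files. All 10 were among the 15521 genes with enough reads to be tested, so no member was lost to the filter.

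Receptors of the TNF family signal by attaching ubiquitin chains to proteins gathered at the receptor, and these chains recruit the kinases that activate NF-κB. A20 and CYLD edit or remove such chains, the TNIP proteins bind A20, and the linear ubiquitin complex builds head-to-tail chains. A20 and TNIP1 are textbook NF-κB target genes that limit the same pathway, and TRAF1 is an adaptor without the RING domain of its relatives that pairs with TRAF2 and the cIAP ubiquitin ligases.

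The study asked which responses of renal proximal tubule epithelial cells (RPTEC) to the TNF family cytokine TWEAK need the kinase NIK, which drives non-canonical NF-κB signaling. Primary RPTEC from C57BL/6 mice, a commercial preparation, received vehicle (DMSO), recombinant mouse TWEAK at 100 ng/mL, or TWEAK at 100 ng/mL together with 3 µM of the NIK inhibitor NIK SMI1, and RNA was taken after 6 h or 24 h. Each of these 6 groups had 3 samples, and every culture carrying NIK SMI1 also carried TWEAK, so NIK SMI1 in unstimulated cells was not analysed here. Nothing in the labels says that replicates came from separate animals, so the p-values measure the spread between these 18 samples, which may be technical.

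The samples held 18040966 to 51956444 counted reads (median 35374254), and levels are given as CPM, the reads of a gene scaled to a common total of counted reads, on which 3 reads stood at 0.0577 to 0.166 CPM. The spread between replicates was small, with a biological coefficient of variation of 0.0404 over all tested genes. All 6 epithelial markers were present in every sample, at a summed 7207 to 9102 CPM. Within that sum, mean Epcam went from 721 CPM in vehicle to 1292 CPM with TWEAK and 843 CPM with both agents at 6 h. At 24 h it went from 649 to 1214 and 884 CPM. Mean Krt8, Krt18, Pax8 and Cdh16 were lower with TWEAK than in vehicle at both times, and Cdh1 was higher at 6 h and lower at 24 h. The 6 proximal tubule markers summed to 9.14 to 12.99 CPM. Of these, Slc5a2 (5.83 to 8.52 CPM) and Cubn (1.93 to 4.64 CPM) were present in every sample, Lrp2 and Aqp1 reached at most 0.586 and 0.455 CPM, and the transporters Slc34a1 and Slc22a6 at most 0.0441 and 0.0226 CPM. Of the 7 leukocyte markers, Cd3e had no read in any sample, Ptprc reached at most 0.304 CPM, and Cd68 supplied nearly the whole sum of 11.5 to 14.7 CPM. A summed 14.3 to 29.0 CPM from 7 pancreatic islet genes was found in each 6 h sample and in each vehicle sample at 24 h, but the TWEAK samples at 24 h held 13.2, 0.214 and 4.18 CPM and the 24 h samples with NIK SMI1 held 0.0451 to 0.0870 CPM. Ins2, Iapp and Chga supplied most of the larger sums, Gcg and Sst reached at most 0.441 and 0.0554 CPM, and Ppy had no read in any sample. These reads moved with the 24 h comparisons, and their origin was not tested. The effect of NIK SMI1 at 24 h is therefore also given against the 1 TWEAK sample that nearly lacked them. Their part in the 24 h comparisons with vehicle was not tested.

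Per kilobase of exon, Tnfaip3 was the most abundant of the 10 mRNAs in every group, and Tnip3 was the least abundant in both vehicle groups. On the deposited RPKM scale, the level at 6 h in vehicle was 67.6 ± 0.395 (SD, n = 3) for Tnfaip3, 34.8 ± 2.55 for Rbck1, 26.6 ± 0.827 for Tnip1 and 24.8 ± 2.39 for Sharpin. The middle of the order was held by Cyld at 14.5 ± 0.707, Rnf31 at 10.8 ± 0.812, Spata2 at 9.06 ± 0.434 and Tnip2 at 7.48 ± 0.908. Traf1 at 0.457 ± 0.153 and Tnip3 at 0.386 ± 0.0476 closed it, and these neighbors did not differ beyond their spread. Nor did Tnip1 and Sharpin, whose samples overlapped. In vehicle at 24 h Tnip1 stood at 23.7 RPKM, below Sharpin at 27.9 and Rbck1 at 40.9, and Traf1 at 0.443. After 24 h of TWEAK Traf1 reached 22.2 ± 0.868 RPKM and passed Cyld, Rnf31, Spata2 and Tnip2. Tnip1 at 44.7 ± 1.03 RPKM then lay above all 3 samples of Rbck1 at 42.5 ± 0.483. Tnip3 stayed last at 0.723 ± 0.0320 RPKM. Already after 6 h of TWEAK, Tnip1 at 43.1 RPKM lay above Rbck1 at 36.0, and Traf1 at 8.84 above Tnip2 at 7.53.

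**Figure D1:**
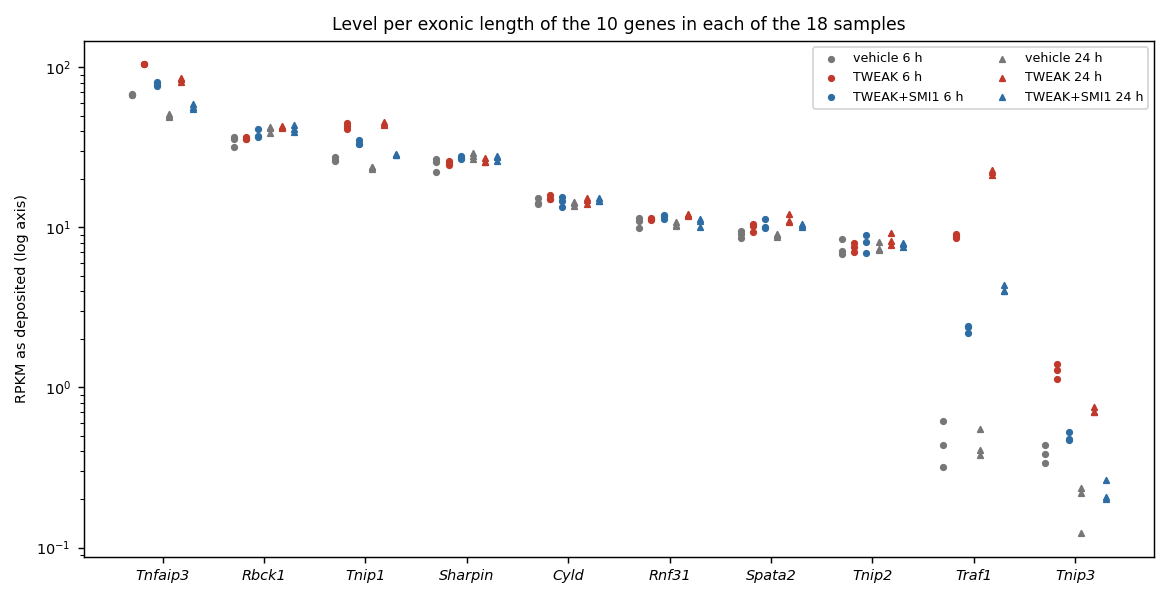
RPKM as deposited (log axis) of each of the 10 genes in each of the 18 samples, ordered by their mean in vehicle at 6 h; circles are 6 h and triangles 24 h, gray is vehicle, red TWEAK and blue TWEAK with NIK SMI1. Traf1 runs from 0.457 RPKM in vehicle at 6 h to 22.2 RPKM after 24 h of TWEAK, and Tnfaip3 tops every group. The points of each of Cyld, Tnip2 and Sharpin, called in no comparison, lie close together.

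Of the 10 genes, 9 matched the RefSeq promoter table of the mouse assembly GRCm38.p6, with 11 annotated starts, and Sharpin is named only. The 250 bases before each start were searched on both strands for the NF-κB (κB) consensus, a motif of 10 bases. The windows of Tnfaip3 (its first start), Tnip1, Tnip3 and Cyld held a match, which is 4 of 11 windows, against 7.25% of the 32851 windows of all genes in the table. These 4 are printed with that of Traf1, the gene with the largest response, because they set the motif beside the response. The windows are chr10:19015411-19015660 (minus strand) for Tnfaip3, chr11:54962941-54963190 (minus) for Tnip1, chr6:65590148-65590397 (plus) for Tnip3, chr8:88696778-88697027 (plus) for Cyld and chr2:34961773-34962022 (minus) for Traf1, each written 5′ to 3′ along the gene with the κB matches in capitals.
Tnfaip3: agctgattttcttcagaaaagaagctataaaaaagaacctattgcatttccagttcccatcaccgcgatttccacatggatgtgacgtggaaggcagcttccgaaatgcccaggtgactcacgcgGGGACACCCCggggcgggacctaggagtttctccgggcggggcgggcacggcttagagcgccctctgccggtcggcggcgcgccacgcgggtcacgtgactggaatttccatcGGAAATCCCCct
Tnip1: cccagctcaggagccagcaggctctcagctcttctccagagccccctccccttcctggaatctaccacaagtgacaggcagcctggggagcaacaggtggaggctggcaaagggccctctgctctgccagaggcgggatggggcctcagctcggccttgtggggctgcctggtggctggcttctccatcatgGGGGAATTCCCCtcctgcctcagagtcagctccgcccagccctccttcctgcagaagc
Tnip3: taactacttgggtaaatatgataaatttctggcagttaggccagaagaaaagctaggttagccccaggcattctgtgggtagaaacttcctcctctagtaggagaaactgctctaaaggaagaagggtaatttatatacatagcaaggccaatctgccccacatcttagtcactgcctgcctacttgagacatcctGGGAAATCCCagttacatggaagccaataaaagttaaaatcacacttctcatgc
Cyld: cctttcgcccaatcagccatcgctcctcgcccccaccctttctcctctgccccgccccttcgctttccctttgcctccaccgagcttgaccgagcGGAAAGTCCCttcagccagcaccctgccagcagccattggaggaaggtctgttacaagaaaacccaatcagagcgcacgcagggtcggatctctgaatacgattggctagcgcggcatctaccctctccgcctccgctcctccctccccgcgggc
Traf1: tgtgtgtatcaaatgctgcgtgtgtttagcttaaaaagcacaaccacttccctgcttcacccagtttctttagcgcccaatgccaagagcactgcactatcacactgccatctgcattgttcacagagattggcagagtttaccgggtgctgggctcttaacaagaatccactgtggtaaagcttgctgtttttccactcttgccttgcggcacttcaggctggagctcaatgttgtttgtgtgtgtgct
Counted from the start, the matches lay at bases -125 to -116 and -12 to -3 for Tnfaip3, -54 to -45 for Tnip3 and -155 to -146 for Cyld, and at -58 to -47 for Tnip1, where overlapping matches form 1 run of capitals. Of the 4 genes with a match, 3 rose with TWEAK in the results that follow and Cyld did not pass the test, and Traf1, with no match in its window, rose most. A match is a description of the letters and not a measured binding site, and its absence says only that these letters are not in the 250 bases searched.

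**Figure D2:**
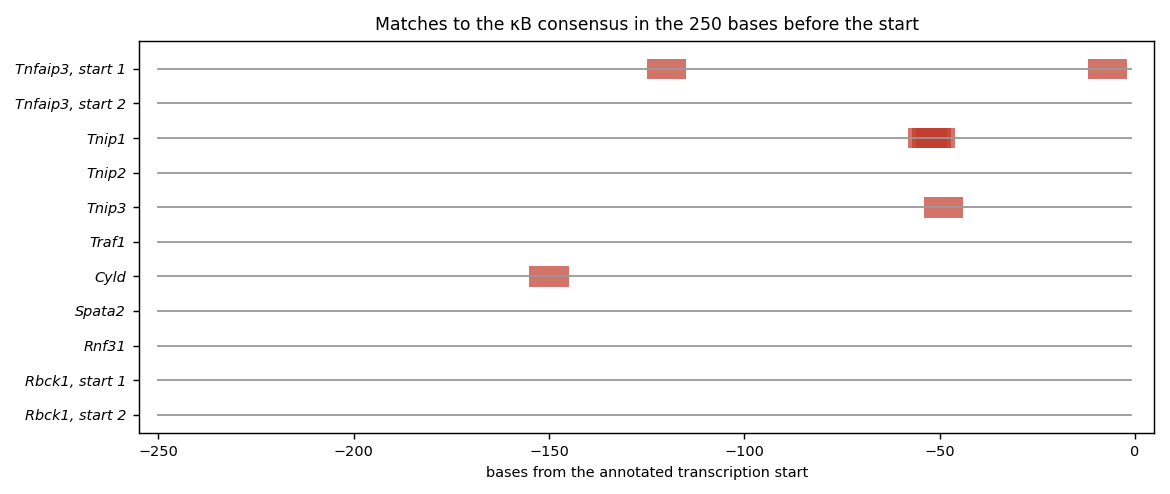
Positions of κB consensus matches (red boxes) in the 250 bases before each of the 11 annotated starts of 9 genes, with distance from the start in bases on the horizontal axis. Boxes stand in the first Tnfaip3 window and in those of Tnip1, Tnip3 and Cyld, and the remaining windows have none.

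TWEAK raised 5 of the 10 genes at 6 h (Tnfaip3, Tnip1, Tnip3, Traf1 and Spata2) and 6 at 24 h (the same 5 and Rnf31), by edgeR's quasi-likelihood test with a Benjamini-Hochberg adjusted p under 0.05. Over all tested genes, 11.7% rose at 6 h and 18.3% at 24 h. Only Tnip3 and Traf1 rose more than 2-fold, at both times, as did 1.75% of all genes at 6 h and 2.34% at 24 h. All 3 TWEAK samples lay above all 3 vehicle samples for 4 members at 6 h and 7 at 24 h, against 15.8% and 24% of all genes. NIK SMI1 lowered 4 of the TWEAK-stimulated levels at 6 h (Tnfaip3, Tnip1, Tnip3 and Traf1; 5.7% of all genes fell) and 5 at 24 h (the same 4 and Rnf31; 8.29% fell). The fall exceeded 1.5-fold for Tnip3 and Traf1 at 6 h and for Tnip1, Tnip3 and Traf1 at 24 h, against 1.1% and 1.75% of all genes. Samples with NIK SMI1 lay below all TWEAK samples for 4 members at 6 h and 6 at 24 h, against 12.1% and 15% of all genes. Under TWEAK the 10 genes had a median log2 change of 0.13 at 6 h and 0.26 at 24 h, where that of all tested genes was -0.0034 and -0.0055, and under added NIK SMI1 it was -0.02 and -0.14, where that of all genes was 0.0029 and 0.0083.

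**Figure D3:**
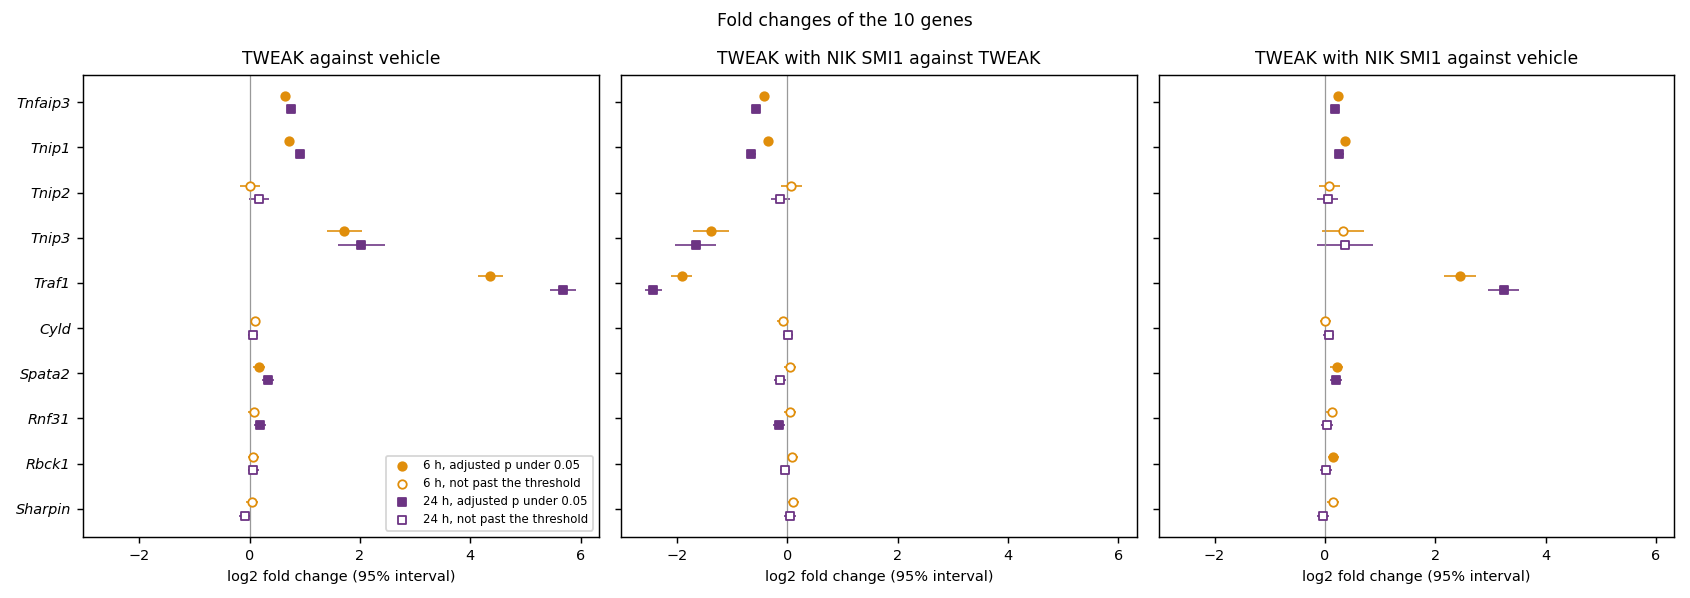
Log2 fold changes of the 10 genes with 95% intervals for TWEAK against vehicle, TWEAK with NIK SMI1 against TWEAK, and TWEAK with NIK SMI1 against vehicle; orange circles are 6 h, purple squares 24 h, and filled symbols passed an adjusted p of 0.05. Traf1 stands apart at 4.36 and 5.68 in the first panel, Tnip3 follows at 1.72 and 2.02, and Tnfaip3 and Tnip1 cluster between 0.64 and 0.91.

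Tnfaip3 (GeneID 21929) encodes A20, an enzyme that both trims and adds ubiquitin and restrains NF-κB signaling. At 6 h it measured 333, 337 and 343 CPM in vehicle, 526, 526 and 519.7 CPM with TWEAK, and 404, 381 and 400.3 CPM with TWEAK and NIK SMI1. At 24 h the levels were 255, 246 and 249 CPM in vehicle, 424, 408 and 433 CPM with TWEAK, and 276, 298 and 284 CPM with both agents. In each time point the 3 groups were fully separated, with the doubly treated samples between vehicle and TWEAK. TWEAK raised Tnfaip3 1.56-fold at 6 h (log2 change 0.64 ± 0.033, SE, adjusted p = 1.6e-14) and 1.68-fold at 24 h (0.75 ± 0.034, adjusted p = 4.29e-16). NIK SMI1 lowered the stimulated level 1.33-fold at 6 h (log2 change -0.41 ± 0.033, adjusted p = 8.19e-10) and 1.48-fold at 24 h (-0.56 ± 0.034, adjusted p = 9.19e-13). What remained was still above vehicle, by 0.23 ± 0.034 on the log2 scale at 6 h (adjusted p = 1.56e-05) and 0.19 ± 0.034 at 24 h (adjusted p = 0.000159). In order of CPM, TWEAK at 6 h stood first, then TWEAK at 24 h, both agents at 6 h, vehicle at 6 h, both agents at 24 h and vehicle at 24 h, and no neighbors in this order overlapped.

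Tnip1 (GeneID 57783) encodes ABIN-1, which binds ubiquitin and A20. At 6 h it measured 87.6, 91.7 and 86.9 CPM in vehicle, 138, 145 and 149.9 CPM with TWEAK, and 112, 117 and 113 CPM with TWEAK and NIK SMI1. At 24 h the samples gave 80.2, 80.5 and 77.9 CPM in vehicle, 153, 147 and 149 CPM with TWEAK, and 95.8, 96.2 and 95.5 CPM with both agents. The 3 groups did not overlap at either time, although the TWEAK samples of 6 h and 24 h overlapped each other. TWEAK raised Tnip1 1.64-fold at 6 h (log2 change 0.71 ± 0.037, adjusted p = 1.4e-14) and 1.88-fold at 24 h (0.91 ± 0.038, adjusted p = 7.92e-17). NIK SMI1 lowered it 1.27-fold at 6 h (log2 change -0.35 ± 0.037, adjusted p = 9.76e-08) and 1.57-fold at 24 h (-0.65 ± 0.037, adjusted p = 3.53e-13). Against vehicle the doubly treated cells remained higher by 0.36 ± 0.038 on the log2 scale at 6 h (adjusted p = 6.71e-08) and 0.26 ± 0.039 at 24 h (adjusted p = 8.21e-06).

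Tnip3 (GeneID 414084) encodes ABIN-3, the least abundant of the A20-binding adaptors here, and its fold changes under TWEAK were larger than those of Tnip1, with intervals that did not overlap. At 6 h it measured 1.59, 1.42 and 1.83 CPM in vehicle, 5.37, 4.77 and 5.81 CPM with TWEAK, and 1.95, 2.00 and 2.22 CPM with both agents. At 24 h the samples gave 0.514, 0.913 and 0.976 CPM in vehicle, 3.17, 2.95 and 2.96 CPM with TWEAK, and 1.11, 0.870 and 0.845 CPM with both agents. The TWEAK samples stood clear of both other groups at each time, whereas vehicle and doubly treated samples overlapped at 24 h. These levels rest on 18 to 240 reads per sample, and the errors are accordingly wider than for Tnfaip3. TWEAK raised Tnip3 3.28-fold at 6 h (log2 change 1.72 ± 0.15, adjusted p = 9.46e-10) and 4.07-fold at 24 h (2.02 ± 0.21, adjusted p = 6.04e-09). NIK SMI1 lowered it 2.61-fold at 6 h (log2 change -1.39 ± 0.16, adjusted p = 4.36e-07) and 3.16-fold at 24 h (-1.66 ± 0.18, adjusted p = 8.38e-08). The difference left against vehicle was 0.33 (95% interval -0.05 to 0.71, adjusted p = 0.257) at 6 h and 0.36 (-0.14 to 0.87, adjusted p = 0.365) at 24 h, so a remaining rise was not detectable at this depth.

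Tnip2 (GeneID 231130), which encodes ABIN-2 and was present at 13.8 to 19.0 CPM, was the member of the family that did not pass the test in any comparison. Its TWEAK samples measured 16.5, 15.5 and 14.3 CPM at 6 h, against 13.8, 14.5 and 17.6 CPM in vehicle. At 24 h they measured 15.9, 19.0 and 16.8 CPM, against 14.99, 16.6 and 14.8 CPM. The groups overlapped at both times. The log2 fold change under TWEAK was 0.01 (95% interval -0.17 to 0.19) at 6 h and 0.17 (-0.02 to 0.36) at 24 h, intervals that lie below the rises of Tnip1 and Tnip3.

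Traf1 (GeneID 22029) encodes an adaptor of TNF receptors that is itself induced by NF-κB, and it responded most of the 10. At 6 h it measured 1.59, 1.12 and 0.828 CPM in vehicle, 22.4, 23.1 and 23.3 CPM with TWEAK, and 6.26, 6.19 and 5.71 CPM with TWEAK and NIK SMI1. At 24 h the samples gave 1.05, 1.42 and 0.976 CPM in vehicle, 54.9, 59.7 and 58.1 CPM with TWEAK, and 10.4, 10.5 and 11.4 CPM with both agents. No group overlapped another except the vehicle groups of 6 h and 24 h. TWEAK raised Traf1 20.6-fold at 6 h (log2 change 4.36 ± 0.11, adjusted p = 4.34e-21) and 51.1-fold at 24 h (5.68 ± 0.11, adjusted p = 1.07e-23). These folds rest on vehicle levels of 20 to 49 reads per sample. NIK SMI1 lowered the stimulated level 3.77-fold at 6 h (log2 change -1.91 ± 0.090, adjusted p = 2.73e-14) and 5.4-fold at 24 h (-2.43 ± 0.075). The cells with both agents were nevertheless 5.46-fold above vehicle at 6 h (log2 change 2.45 ± 0.14, adjusted p = 8.64e-13) and 9.47-fold above it at 24 h (3.24 ± 0.14, adjusted p = 6.39e-16).

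**Figure D4:**
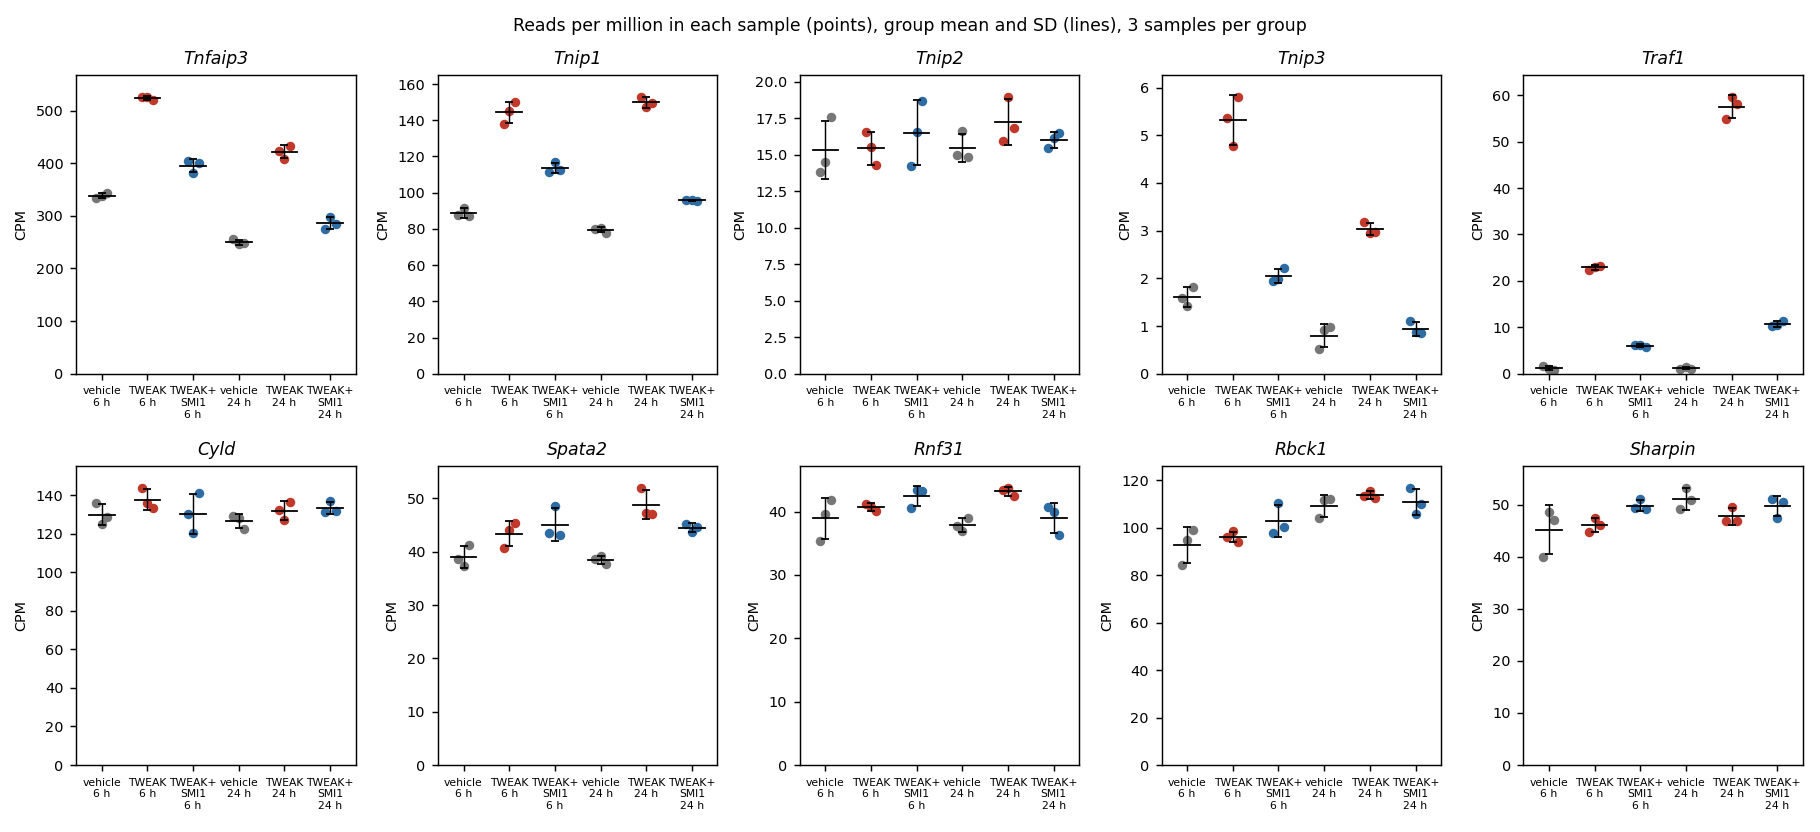
CPM of each of the 10 genes in each sample (points) with the group mean and SD (lines, 3 samples per group), on axes that start at 0. Red TWEAK points stand above gray vehicle points for Tnfaip3, Tnip1, Tnip3 and Traf1, with blue points (TWEAK with NIK SMI1) in between or near vehicle, while the TWEAK and vehicle points of Tnip2, Cyld and Sharpin at 6 h overlap.

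CYLD, a deubiquitinase that removes linear and other ubiquitin chains, was not called at the mRNA level in the fit of all samples, and its adaptor SPATA2, which links it to the linear ubiquitin complex, rose modestly. Cyld (GeneID 74256) ranged from 120.2 to 144 CPM over the 18 samples, and did not pass the test in any comparison of the 18 samples. Under TWEAK it measured 144, 136 and 133 CPM at 6 h against 136, 125 and 129 CPM in vehicle, and 132, 127 and 137 CPM at 24 h against 129, 128 and 123 CPM. The log2 fold changes were 0.09 (95% interval 0.00075 to 0.19, adjusted p = 0.147) and 0.06 (-0.04 to 0.15, adjusted p = 0.362), so a rise of the size seen for Tnfaip3 lies outside both intervals. Without vehicle sample 1 of 6 h, the 6 h change passed the test (0.14, adjusted p = 0.0324).

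Spata2 (GeneID 263876) measured 38.6, 37.2 and 41.3 CPM in vehicle, 40.7, 44.1 and 45.3 CPM with TWEAK and 43.5, 48.6 and 43.2 CPM with both agents at 6 h. At 24 h it measured 38.6, 39.2 and 37.7 CPM in vehicle, 51.9, 47.3 and 47.1 CPM with TWEAK and 45.2, 43.6 and 44.6 CPM with both agents. The TWEAK and vehicle samples overlapped at 6 h but not at 24 h. The rise was 1.26-fold at 24 h (log2 change 0.34 ± 0.056, adjusted p = 1.9e-05) and 1.12-fold at 6 h (0.16 ± 0.053, adjusted p = 0.025). The 6 h call was lost in 3 of 6 fits that left out 1 sample each (vehicle sample 2, TWEAK sample 2 or TWEAK sample 3). It was also lost with the 6 h time point fitted alone (0.17, adjusted p = 0.0515). Tested against a minimum change of 1.2-fold, Spata2 was called under TWEAK at neither time (adjusted p = 0.188 at 24 h). With NIK SMI1 the level relative to TWEAK differed by 0.05 (95% interval -0.06 to 0.16) at 6 h and -0.13 (-0.24 to -0.02, adjusted p = 0.0908) at 24 h, neither past the threshold. The 24 h samples with NIK SMI1 lay below all TWEAK samples, and with the 24 h time point fitted alone the difference passed (-0.14, adjusted p = 0.028). With both agents Spata2 stayed above vehicle by 0.21 ± 0.055 and 0.20 ± 0.056 on the log2 scale (adjusted p = 0.00933 and 0.00975). The 6 h value against vehicle lost its call without vehicle sample 2 (adjusted p = 0.0508) or without NIK SMI1 sample 2 (adjusted p = 0.106). Spata2 shares 129 exonic bases with Rnf114 on the opposite strand, and the counting strand is not given in the sources used here. Rnf114 itself rose by 0.11 ± 0.040 on the log2 scale at 24 h (adjusted p = 0.0295), and its part in the Spata2 value was not tested.

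The linear ubiquitin chain assembly complex consists of the catalytic subunit HOIP (Rnf31), HOIL-1 (Rbck1) and SHARPIN, and its mRNAs moved by at most 0.19 on the log2 scale under TWEAK. Rnf31 (GeneID 268749) measured 37.7, 36.9 and 39.0 CPM in vehicle, 43.5, 43.7 and 42.4 CPM with TWEAK and 40.7, 40.0 and 36.3 CPM with both agents at 24 h. Those with TWEAK were the highest 3 of the 9 at this time, whereas at 6 h the vehicle samples (35.4, 39.7 and 41.8 CPM) overlapped those with TWEAK (41.2, 40.8 and 40.1 CPM). The 24 h rise was 1.14-fold (log2 change 0.19 ± 0.052, adjusted p = 0.00481), and was not called against a minimum change of 1.2-fold. The fall with NIK SMI1 at 24 h was 1.11-fold (log2 change -0.15 ± 0.050, adjusted p = 0.0401) and did not hold up: it lost its call without any 1 of the TWEAK samples (adjusted p = 0.0633 to 0.112), without NIK SMI1 sample 3 (adjusted p = 0.238), and with no filter on low counts (adjusted p = 0.0619). Rnf31 shares 123 exonic bases with Irf9 on the same strand, whose own log2 fold change at 24 h was 0.13 ± 0.094 (adjusted p = 0.316).

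Rbck1 (GeneID 24105) ranged from 84.3 to 117 CPM and Sharpin (GeneID 106025) from 40.0 to 53.2 CPM. With TWEAK, Rbck1 measured 96.0, 98.5 and 94.1 CPM at 6 h against 84.3, 94.97 and 98.9 CPM in vehicle, and 113, 116 and 113 CPM at 24 h against 104, 112 and 112 CPM. Sharpin measured 44.7, 47.4 and 46.2 CPM at 6 h against 40.0, 48.7 and 47.1 CPM, and 46.8, 49.6 and 46.9 CPM at 24 h against 49.2, 53.2 and 50.9 CPM. Between TWEAK and vehicle, only the 24 h samples of Rbck1 did not overlap, and then by a narrow margin. The log2 fold changes were 0.06 (95% interval -0.04 to 0.16) and 0.06 (-0.04 to 0.16) for Rbck1, and 0.04 (-0.07 to 0.14) and -0.09 (-0.20 to 0.02) for Sharpin, none past the threshold. Rbck1 with both agents exceeded vehicle at 6 h by 0.15 ± 0.049 (adjusted p = 0.0369), a call lost without vehicle sample 1 (adjusted p = 0.217) or NIK SMI1 sample 2 (adjusted p = 0.288). That call was also lost with the 6 h time point fitted alone (adjusted p = 0.0812). Sharpin with both agents at 6 h measured 49.3, 51.0 and 49.2 CPM, above all TWEAK and vehicle samples of that time. Its log2 difference was 0.11 from TWEAK (adjusted p = 0.234) and 0.14 from vehicle (adjusted p = 0.0753), neither past the threshold.

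The 24 h effects of NIK SMI1 were also computed against TWEAK sample 2 alone, which carried nearly as few reads of the islet genes as the NIK SMI1 samples. The log2 fold changes were then -0.51 for Tnfaip3 (adjusted p = 2.86e-08), -0.62 for Tnip1 (adjusted p = 9.39e-09), -1.62 for Tnip3 (adjusted p = 3.86e-05) and -2.48 for Traf1 (adjusted p = 2.17e-14). Rnf31 was no longer called (-0.16, adjusted p = 0.203). This fit has 1 TWEAK sample, which is assumed to vary like the other groups.

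The TWEAK response, as a log2 change against vehicle of the same time, grew between 6 h and 24 h for Traf1 and Tnip1. For Traf1 the TWEAK effect was 1.31 ± 0.22 log2 units larger at 24 h (adjusted p = 0.000122), and for Tnip1 it was 0.20 ± 0.053 larger (adjusted p = 0.0155), the only 2 members of 10 that passed, where 3.24% of all genes had a higher effect at 24 h. The Tnip1 call was lost without vehicle sample 2 of 6 h (adjusted p = 0.0504) or TWEAK sample 1 of 6 h (adjusted p = 0.0685). Mean Tnip1 with TWEAK was 144 CPM at 6 h and 150 CPM at 24 h, with overlapping samples, while vehicle went from 88.8 to 79.5 CPM. Mean Traf1 with TWEAK went from 22.9 to 57.5 CPM, while its vehicle samples overlapped. For Tnfaip3 the change in effect was 0.11 (95% interval 0.01 to 0.21, adjusted p = 0.182) and for Tnip3 it was 0.31 (-0.24 to 0.86, adjusted p = 0.585). The effect of NIK SMI1 deepened for the same 2 genes, by -0.30 ± 0.052 for Tnip1 (adjusted p = 0.00096) and by -0.52 ± 0.12 for Traf1 (adjusted p = 0.0118), where 1.62% of all genes moved that way. The Traf1 value lost its call without NIK SMI1 sample 1 of 6 h (adjusted p = 0.0561).

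The share of the TWEAK rise that was kept was computed for the 4 genes that NIK SMI1 lowered at both times, so some loss follows from that choice. Spata2, called above vehicle with TWEAK and with both agents at both times, was left out. On the linear CPM scale, with the group means of vehicle and TWEAK held fixed, the share of the rise left in the 3 doubly treated samples at 6 h was 44.9% ± 5.20 (SD) for Tnip1, 30.6% ± 6.68 for Tnfaip3, 22.4% ± 1.38 for Traf1 and 12.0% ± 3.87 for Tnip3. At 24 h it was 23.2% ± 0.495 for Tnip1, 20.9% ± 6.60 for Tnfaip3, 17.0% ± 0.991 for Traf1 and 6.23% ± 6.45 for Tnip3. Among these 4, Tnip1 kept the largest mean share and Tnip3 the smallest at both times. Tnip1 and Tnfaip3 did not differ beyond their spread at 24 h, and the rise left for Tnip3 was not detectable against vehicle. The order depends on the scale: in log2 units Traf1 kept 56.1% at 6 h and 57.1% at 24 h, above Tnip1 at 51.0% and 28.9%, Tnfaip3 at 35.8% and 24.9% and Tnip3 at 19.2% and 17.9%. Called against vehicle, 5 members remained higher at 6 h (Tnfaip3, Tnip1, Traf1, Spata2 and Rbck1; 7.24% of all genes) and 4 at 24 h (Tnfaip3, Tnip1, Traf1 and Spata2; 8.07%). Tested against a minimum change of 1.2-fold, Traf1 was the 1 member still called above vehicle at either time. These comparisons share their vehicle and TWEAK samples with those above, and in bulk RNA a change in cell number of one kind and a change in RNA per cell cannot be told apart.

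Vehicle cultures themselves drifted between 6 h and 24 h, and 3 of the 6 members that TWEAK raised fell with it. Tnip3 fell by 1.202 ± 0.22 on the log2 scale (adjusted p = 0.000119), Tnfaip3 by 0.50 ± 0.034 (adjusted p = 5.51e-12) and Tnip1 by 0.22 ± 0.039 (adjusted p = 5.28e-05), with the 24 h samples below the 6 h samples in each case (14.4% of all genes fell, and in 11.1% the samples were separated that way). The other 3 did not pass the test, with differences of -0.06 for Traf1 (95% interval -0.49 to 0.36, adjusted p = 0.868), -0.09 for Spata2 (adjusted p = 0.261) and -0.11 for Rnf31 (adjusted p = 0.11). Rbck1 rose by 0.16 ± 0.049 (adjusted p = 0.0113, with 15.5% of all genes), a call lost without vehicle sample 1 of 6 h (adjusted p = 0.0840), or sample 2 (adjusted p = 0.0504) or 3 (adjusted p = 0.0558) of 24 h. The high Tnfaip3 level after 6 h of TWEAK, 524 ± 3.79 CPM against 422 ± 12.5 CPM at 24 h, thus stood on a vehicle level that was itself higher at 6 h, 338 ± 4.93 against 250.1 ± 4.67 CPM.

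Around these 10 genes, 30 other genes of the ubiquitin, TRAF and receptor scaffold machinery were followed, of which 29 were tested (Otud7a fell below the filter). With TWEAK, 8 rose and 2 fell (Spata2l and Xiap) at 6 h, and 10 rose and 4 fell (Tab3, Traf5, Ube2n and Xiap) at 24 h. Of all tested genes, 11.7% rose and 12% fell at 6 h, and 18.3% rose and 20.7% fell at 24 h. With NIK SMI1 added, 6 of the stimulated levels fell at 6 h, where 5.7% of all genes fell. At 24 h, 8 fell and 3 rose (Otud7b, Ube2n and Xiap), against 8.29% and 10.2% of all genes. Under TWEAK the 29 had a median log2 change of 0.05 at 6 h and 0.08 at 24 h. Over all tested genes that median was -0.0034 and -0.0055. The genes named here beyond the 4 largest were singled out after their values were seen.

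The 4 whose change passed 1.5-fold were Birc3, Birc2, Tank and Traf2. Birc3 and Birc2, the cIAP2 and cIAP1 ubiquitin ligases that hold NIK low in resting cells together with TRAF2 and TRAF3, rose the most. Birc3 went from 6.43 ± 0.353 CPM in vehicle to 35.7 ± 1.55 CPM with TWEAK and 20.3 ± 0.506 CPM with both agents at 6 h, and from 5.22 ± 0.761 to 38.4 ± 1.26 and 16.5 ± 1.71 CPM at 24 h. Its log2 fold change under TWEAK was 2.48 ± 0.075 at 6 h (adjusted p = 1.49e-19) and 2.83 ± 0.083 at 24 h (adjusted p = 3.88e-20), and NIK SMI1 moved it by -0.82 ± 0.068 (adjusted p = 1.4e-09) and -1.22 ± 0.067 (adjusted p = 2.03e-13). Birc2 rose by 0.98 ± 0.064 and 1.19 ± 0.065 and was changed by NIK SMI1 by -0.48 ± 0.065 and -0.66 ± 0.060, all 4 past the threshold. Tank, a TRAF-binding regulator of NF-κB and interferon signaling, rose by 0.85 ± 0.054 and 0.96 ± 0.057 and was changed by -0.44 ± 0.055 and -0.54 ± 0.054, likewise past it. Traf2 rose by 0.68 ± 0.043 and 0.83 ± 0.045, while NIK SMI1 changed it by -0.06 ± 0.043 at 6 h (adjusted p = 0.482) and by -0.27 ± 0.042 at 24 h (adjusted p = 2.94e-05). Xiap, the related inhibitor of apoptosis, went the other way, by -0.18 ± 0.055 at 6 h (adjusted p = 0.0187) and -0.45 ± 0.057 at 24 h (adjusted p = 3.28e-07).

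**Figure D5:**
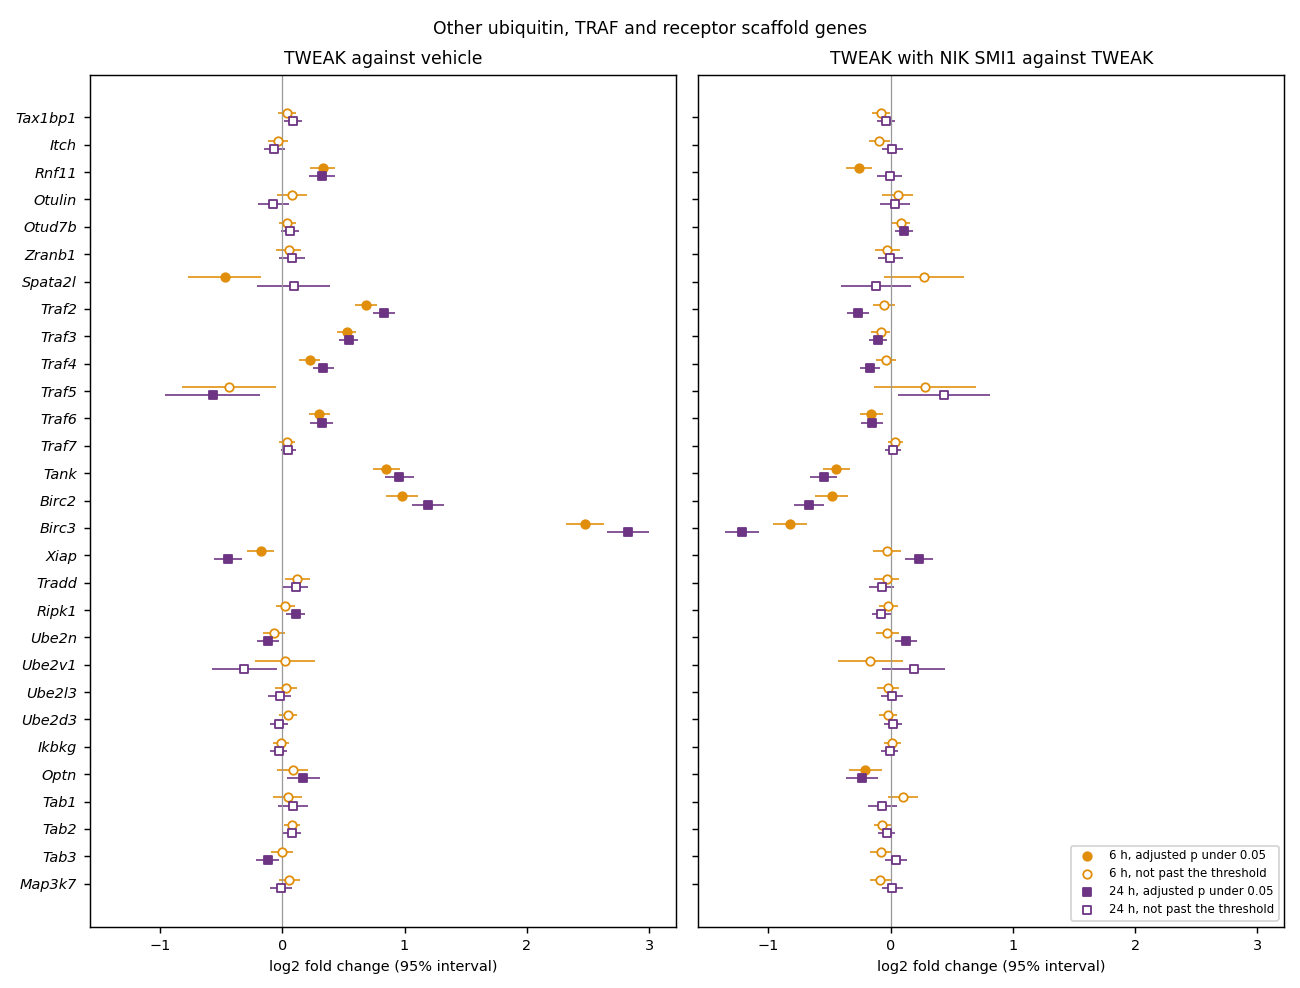
Log2 fold changes with 95% intervals of the 29 tested genes of the ubiquitin, TRAF and receptor scaffold list, for TWEAK against vehicle and for TWEAK with NIK SMI1 against TWEAK; orange circles are 6 h, purple squares 24 h, and filled symbols passed an adjusted p of 0.05. Birc3 lies farthest to the right under TWEAK (2.48 and 2.83) and farthest to the left under NIK SMI1 (-0.82 and -1.22), followed by Birc2 and Tank, with most other genes near 0.

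The genes whose 6 group means ran most like those of the responsive members were found by the root mean square difference of centred log2 CPM over the 6 groups. For Tnfaip3 they were Itga2 at 0.0537, Adam8 at 0.0604 and Itgav at 0.0757 log2 units. For Tnip1 the named genes were Ets1 at 0.0498 and Dnajb2 at 0.0609, behind a gene with identifier 102641753 and no symbol in the table used, at 0.0472. For Traf1 the nearest were Ccl9 at 0.301, Rgs4 at 0.490 and Vcam1 at 0.492, and for Tnip3 they were Lilr4b at 0.273, Sprr2e at 0.288 and Cd40 at 0.305. The measure is not scaled to the size of a gene's response or to its read depth. Distances for Traf1 and Tnip3 can therefore not be set against those for Tnfaip3 and Tnip1. All group means compared come from the same 18 libraries, so this is a description of likeness and not a test.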

How the data were processed

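RNA from 18 cultures was sequenced by the authors as single-end TruSeq libraries, mapped by GSNAP, run within HTSeqGenie, against NCBI build 37, and deposited as raw counts of uniquely aligned reads per gene over its exons. The deposited RPKM values divide these counts by exonic length and by the reads of the sample, and were used here only to compare levels between genes. Counting strand, tool versions and annotation release are not given in the sources used here, and the labels and the methods differ on the sequencer, read length and RNA input.

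Counts of all 18 samples were fitted as 6 groups with edgeR 4.0.16 in R 4.3.3 (TMM factors 0.964 to 1.034, quasi-likelihood test, Benjamini-Hochberg adjustment over 15521 genes with more than 10 reads in at least 4 samples). A gene was called at an adjusted p under 0.05. Standard errors are the log2 fold change divided by the square root of F, and intervals are 95%. For a large change from few reads, such as Traf1 against vehicle, both are likely too narrow. CPM scale each library to its total of counted reads, without TMM factors. No pair of replicates agreed within sampling noise (chi-square per gene 2.16 to 9.76), so none was merged. The fit was checked on simulated data first. Intervals include the spread between replicates, and the 3-read floor covers counting error only.

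Symbols came from RefSeq (GRCm38.p6) by Entrez identifier, for 31049 of 36528 genes, and no coordinate was converted between builds. Promoter windows are RefSeq's and shared exonic bases are those of GENCODE on GRCm38.

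The members and lists were chosen with earlier results of these data known. By rule, genes named are the 10 members, genes of the ubiquitin list past 1.5-fold with an adjusted p under 0.05 in the TWEAK or NIK SMI1 comparisons, and the 3 genes most like each of Tnfaip3, Tnip1, Tnip3 and Traf1 over the 6 group means (prior count 2). Other genes of the ubiquitin list, and Irf9 and Rnf114, were named after their values were seen, the last 2 for sharing exonic bases with members. Alternatives were DESeq2 1.42.0, its size factors within edgeR, no filter, edgeR's own filter, a test against 1.2-fold, each time point fitted alone, and each sample left out. A comparison with TWEAK sample 2 alone at 24 h was added after seeing the islet reads.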

Additional observations from a re-analysis of the deposited data

Results flagged for a closer look

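For 2 of the 10 genes, the effect of an agent differed between the 6 h and 24 h time points by the interaction test in edgeR's quasi-likelihood fit of all 18 samples. The TWEAK effect on Traf1 was 1.31 log2 units larger at 24 h (SE 0.216, adjusted p = 0.000122), from 4.36 at 6 h to 5.68 at 24 h. The TWEAK effect on Tnip1 was 0.198 larger (SE 0.0528, adjusted p = 0.0155), from 0.71 to 0.91. The NIK SMI1 effect on Tnip1 changed by -0.298 (SE 0.0522, adjusted p = 0.00096), from -0.35 to -0.65, and that on Traf1 by -0.519 (SE 0.121, adjusted p = 0.0118), from -1.91 to -2.43. For Tnip1 the vehicle level also fell between the times, by 0.22 on the log2 scale, whereas the TWEAK samples of both times overlapped, and for Traf1 the vehicle samples overlapped while the TWEAK level rose from 22.9 to 57.5 CPM. Reads of the islet genes were lower in the TWEAK samples of 24 h than of 6 h. With both agents their sum was 14.8 to 17.2 CPM at 6 h and 0.0451 to 0.0870 CPM at 24 h. The part of these reads in the differences between times was not tested.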

How the results depend on the processing

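Under all alternatives, none of the called values changed direction. Of 465 recomputed values of called results, 427 kept their call and 38 lost it, and the 4 genes with the main response (Tnfaip3, Tnip1, Tnip3 and Traf1) kept their TWEAK and NIK SMI1 calls at both times in every alternative but 1, the test against a minimum of 1.2-fold for Tnip1 under NIK SMI1 at 6 h (adjusted p = 0.166). That test also took the TWEAK calls of Spata2 at 6 h and at 24 h (adjusted p = 0.188 at 24 h). Rnf31 lost its TWEAK and NIK SMI1 calls at 24 h in the same test. The members called fell to 1 against vehicle with both agents at either time, 1 for the TWEAK effect between times, 0 for the NIK SMI1 effect between times (glmTreat, 1 at an unadjusted p under 0.05, and 3 by DESeq2) and 2 for vehicle over time. The other ubiquitin genes called fell to 5 and 6 under TWEAK at 6 h and 24 h and to 3 and 3 under NIK SMI1. Against TWEAK sample 2 alone, 4 of those genes were called under NIK SMI1 at 24 h. Leaving out 1 sample at a time, members called ranged from 1 to 2 for the TWEAK effect between times, 1 to 3 for the NIK SMI1 effect between times and 3 to 6 for both agents against vehicle at 6 h, where leaving out NIK SMI1 sample 2 gave the 3. Values that turned sign were uncalled, and their log2 ranges without 1 sample were -0.043 to 0.127 (Tnip2) and -0.031 to 0.086 (Sharpin) for TWEAK at 6 h, -0.010 to 0.085 (Spata2) and -0.010 to 0.178 (Tnip2) for NIK SMI1 at 6 h, -0.021 to 0.041 (Cyld) for NIK SMI1 at 24 h, -0.039 to 0.061 (Cyld, 6 h) and -0.018 to 0.050 (Rbck1, 24 h) for both agents against vehicle, -0.047 to 0.49 (Tnip3) for the TWEAK effect between times and -0.32 to 0.18 (Traf1) for vehicle over time. The Tnfaip3 NIK SMI1 effect between times passed with DESeq2 (-0.15, adjusted p = 0.0408) and without TWEAK sample 2 or NIK SMI1 sample 2 of 24 h, and Sharpin and Rnf31 with both agents against vehicle at 6 h passed without vehicle sample 2 (0.19, adjusted p = 0.0223) and vehicle sample 3 (0.17, adjusted p = 0.0392). The cause of these changes was not tested. Depth limits Tnip3 and the vehicle level of Traf1, which rest on 18 to 240 and on 20 to 49 reads per sample. Replicate numbers were given in accession order and only name samples. No paired analysis was possible because the labels give no replicate numbers.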

Other observations

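Rnf11, which encodes a RING protein of the A20 complex, was singled out after its values were seen because its NIK SMI1 effect passed the test at 6 h and not at 24 h. TWEAK raised it by 0.33 ± 0.050 on the log2 scale at 6 h (adjusted p = 1.01e-05) and 0.32 ± 0.053 at 24 h (adjusted p = 1.5e-05). NIK SMI1 moved the stimulated level by -0.26 ± 0.051 at 6 h (adjusted p = 0.000959) and by -0.01 ± 0.051 at 24 h (adjusted p = 0.95), and the difference of these effects was 0.25 ± 0.073 (adjusted p = 0.0467, edgeR's quasi-likelihood test). In vehicle its level differed by -0.35 ± 0.053 between 24 h and 6 h (adjusted p = 7.89e-06). Traf3, which holds NIK in its degradation complex, rose by 0.53 ± 0.037 and 0.54 ± 0.038 (adjusted p = 7.76e-12 and 3.2e-12), with a change in effect of 0.02 (adjusted p = 0.907), and Traf6 rose by 0.30 ± 0.044 and 0.32 ± 0.046 (adjusted p = 3.62e-06 and 1.68e-06), with a change in effect of 0.02 (adjusted p = 0.915). These genes were chosen after their values were seen.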
